A study of Mus musculus with 6 samples.

Results

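The apolipoproteins that liver makes and Mttp, the microsomal transfer protein, were compared between KRAP-/- mice and wild-type (WT) littermates on arrays of liver RNA. The 10 genes were Apoa1, Apoa2, Apoa4, Apoa5, Apob, Apoc1, Apoc2, Apoc3, Apoe and Mttp. Every probe set that the array's annotation gives to exactly 1 of these symbols was taken, which was 16 of 45037 probe sets and 10 of 18193 named genes. Apoa1 had 4 probe sets, Apoa4, Apob and Mttp had 2 each, and the other genes had 1.

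Hepatocytes secrete very-low-density lipoprotein (VLDL), a particle built around a single apolipoprotein B molecule that Mttp loads with lipid in the endoplasmic reticulum. Apolipoproteins A1 and A2 form the frame of high-density lipoprotein (HDL), whereas A4, A5, the C group and E move between particles, where they tune lipoprotein lipase or act as ligands of receptors. Much of the control of apolipoprotein B secretion is known to act after transcription, on degradation of the protein, so mRNA levels describe only a part of the pathway.

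The livers came from 3 KRAP-/- and 3 WT mice, each 32 weeks old, of a C57BL6/J background and fed normal chow, with 1 array per mouse and the mice numbered as 3 littermate pairs. The mutant allele has exons 11 to 16 of KRAP replaced by a neomycin cassette in all cells of the body, so it does not single out hepatocytes. Signals are given in units of each array's own median signal, which was 20.2 to 23.4 on the KRAP-/- arrays and 19.1 to 22.6 on the WT arrays as deposited. The single probe set of KRAP, now listed as Itprid2, read 21.6, 21.3 and 19.99 in KRAP-/- and 23.9, 24.5 and 22.3 in WT liver. It could not be placed inside or outside the deleted exons, so it checks nothing about the labels. The summed level of 6 measured hepatocyte markers was 3149 to 3626 in KRAP-/- and 3316 to 3431 in WT liver.

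The question put to the members was whether loss of KRAP moved their mRNA, and at the brightest probe set of each gene none of the 10 passed the test. This count of 0 is by limma with the pair as a block, at an adjusted p of 0.05, on log2 signals floored at 0.1. The fit covers probe sets with a mean of at least 0.5 array medians and shares the spread between probe sets of like intensity (an intensity trend). Among all 13217 genes tested 1.64% passed it, of which those above WT were 0.333% and those below 1.31% of the genes. Apob and Apoa4, 2 of the 10 genes, had an unadjusted p under 0.05, against 15.7% of all genes. Log2 fold changes, KRAP-/- over WT, lay between −0.24 for Apoa4 and 0.22 for Apob, with a median of 0.02 beside −0.08 over all genes. The 95% interval of each of the 10 genes lay inside a change of 1.5-fold in either direction. Such an interval was found for 49.8% of all genes, and for 93.9% of the 968 probe sets whose mean signal reached 100, the range in which most of these genes lie. All 16 probe sets passed the limit on dim probe sets, and 1 of them, the dimmer Apob probe set, was higher in KRAP-/- liver. Of the 28531 probe sets tested 1.41% passed, 0.431% upward and 0.978% downward. An unadjusted p under 0.05 was found for 4 of the 16, against 14.9% of all, and an interval inside 1.5-fold for 14 of the 16, against 38.9% of all.

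**Figure D1:**
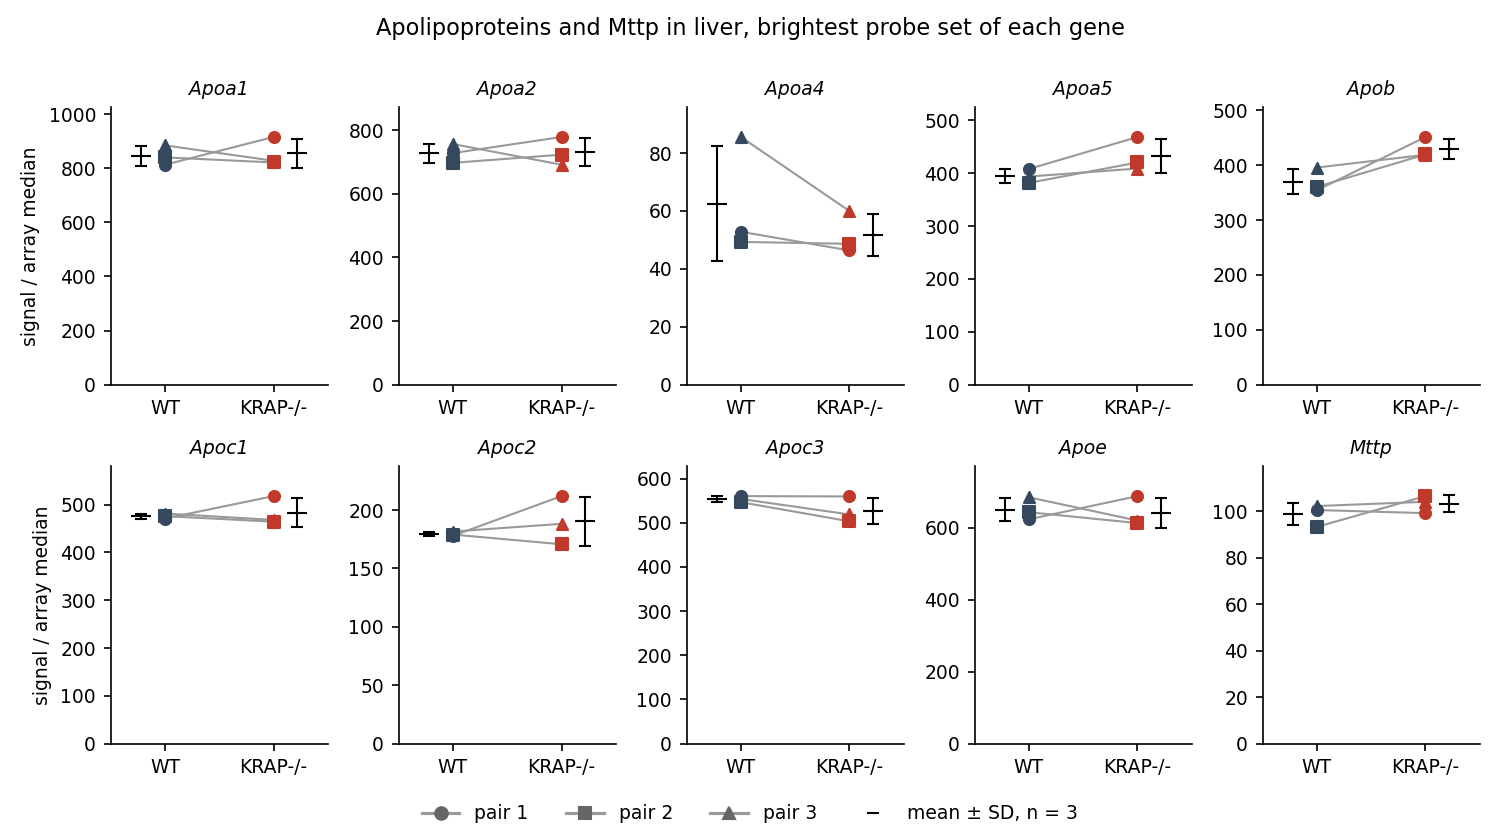
Signal of each of the 10 genes at its brightest probe set, in units of the array median, on a linear axis from 0 for each gene. Points are mice, lines join littermates, and bars beside them are the mean ± SD of 3 mice. The groups did not overlap for Apob and Apoa5, and the third WT mouse stood above the others for Apoa4.

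Apob encodes the structural protein of VLDL and chylomicrons, and its 2 probe sets gave changes of different size. The brighter one, 1455593_at, read 451, 420 and 419 in the KRAP-/- mice and 354, 361 and 396 in their WT littermates. All KRAP-/- values were above all WT values, and the ratios to the WT littermate were 1.27, 1.16 and 1.06 in pairs 1, 2 and 3. The fold change was 1.16 with a 95% interval of 1.02 to 1.32, and the limma adjusted p was 0.261, so the change was not past the test.

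The dimmer Apob probe set, 1457554_at, read 23.4, 64.9 and 25.97 in the KRAP-/- mice and 5.63, 12.2 and 18.7 in their WT littermates. The second KRAP-/- mouse stood far above the rest, and all 3 KRAP-/- values were above the WT values. The log2 fold change was 1.65 with a standard error of 0.29 and a limma adjusted p of 0.0323, and the ratios in the 3 pairs were 4.15, 5.33 and 1.39. The adjusted p rose to 0.106 without the pair as a block, to 0.389 with a floor of 1, to 0.453 with no limit on dim probe sets and to 0.432 without the intensity trend, so the call was lost in each of these. With a floor of 1, with no such limit and without the trend, no probe set of the whole array passed. Because the ratio in pair 3 was under 1.5, the study's rule of a 1.5-fold ratio in every pair named neither Apob probe set nor any other of the 16. Among all 45037 probe sets 2.3% passed that rule upward and 2.88% downward. The ratio was applied here to every probe set, dim ones included, and named more of them than the study reported for liver. These shares are therefore not the study's own counts.

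Groups that did not overlap were seen for 3 of the 16 probe sets, both of Apob and that of Apoa5, each higher in KRAP-/- liver. Such a separation in either direction was found for 20.1% of all probe sets tested, and upward for 7.8%.

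The unequal change of the 2 Apob probe sets was also tested on their difference within each array, in which the scaling of the array cancels. The dimmer signal was 5.17%, 15.5% and 6.20% of the brighter one in the KRAP-/- mice and 1.59%, 3.37% and 4.71% in their WT littermates. These percentages compare arrays and are no share of transcripts, since each probe set has its own response. They were higher in KRAP-/- liver in all 3 pairs, and the lowest KRAP-/- value was only slightly above the highest WT value. The dimmer probe set gained 1.43 on the log2 scale over the brighter one, with a 95% interval of 0.85 to 2.01. The gains in the 3 pairs were 1.70, 2.20 and 0.40. With a limma adjusted p of 0.0649 over 10584 such differences, of which 0.198% passed, the difference was not past the test. It ranked 40 among these differences by p. The adjusted p was 0.0405 when only probe sets with a mean of at least 1 were kept. Leaving out pair 1, 2 or 3 gave limma adjusted p-values of 1.36e-08, 0.114 and 8.31e-06, so the call also depended on which mice were kept. Such a fit leaves 1 residual degree of freedom, so its p-value leans on the spread shared between probe sets. The other 5 differences between probe sets of one member, in Apoa1, Apoa4 and Mttp, were between −0.10 and −0.02 on the log2 scale, with adjusted p-values of 0.703 to 0.887. Where in the Apob transcript the 2 probe sets lie was not given in the sources used here, and which forms of the mRNA each one reads was not tested. The 3' to 5' signal ratio of the actin control probe sets was 2.28 to 2.32 in KRAP-/- and 2.01 to 2.65 in WT liver, highest in the first WT mouse. For Gapdh it was 0.709 to 0.795 and 0.729 to 0.778. The part of RNA integrity in the Apob difference was not tested.

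**Figure D2:**
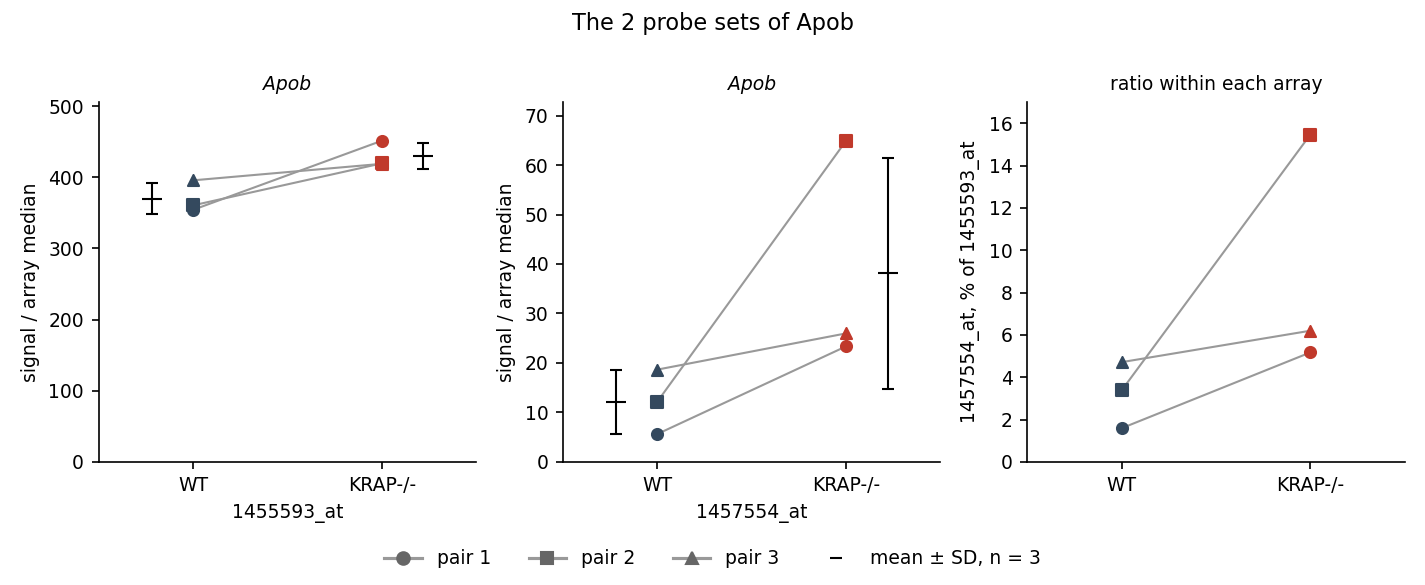
Both probe sets of Apob, in units of the array median, and the dimmer signal as a percentage of the brighter one on the same array, each on a linear axis from 0. Lines join littermates and bars are the mean ± SD of 3 mice. The dimmer probe set was higher in KRAP-/- liver in all 3 pairs, by 4.15-, 5.33- and 1.39-fold, and the brighter one by 1.27-, 1.16- and 1.06-fold.

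The RefSeq promoter tables of GRCm38.p6 hold 12 promoters for 8 of the members, and those of Apob and Apoa4, the genes at either end of the range of changes, are shown for reference. Each is the stretch of 250 bases before the annotated start, on the plus strand, and capitals mark a TATAAA match.
Apob, chr12:7977427-7977676: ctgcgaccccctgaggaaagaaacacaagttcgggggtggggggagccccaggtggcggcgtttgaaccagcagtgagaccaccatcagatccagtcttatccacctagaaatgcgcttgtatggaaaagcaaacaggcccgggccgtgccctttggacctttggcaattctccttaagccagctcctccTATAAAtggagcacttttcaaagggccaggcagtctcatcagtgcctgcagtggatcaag
Apoa4, chr9:46240594-46240843: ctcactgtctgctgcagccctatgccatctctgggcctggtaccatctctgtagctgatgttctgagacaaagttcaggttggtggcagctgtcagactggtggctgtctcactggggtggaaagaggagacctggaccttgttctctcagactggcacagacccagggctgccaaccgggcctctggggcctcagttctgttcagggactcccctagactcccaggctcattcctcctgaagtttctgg
The TATAAA of Apob begins 60 bases before the start. Searched on both strands, TATAAA or its complement TTTATA occurred in 5 of the 12 member promoters and in 12.4% of 32851 promoters. The 5 were promoters of Apoa2, Apoa5, Apob and Apoe. Those of Apoa5 overlap and hold the same match, 31 and 56 bases before their starts, so that site was counted more than once. The match of Apoa2 lay 212 bases before the start. The nuclear receptor half-site AGGTCA occurred in 2 of the 12, in Apoa2 and Apoc2, and in 14% of all. The HNF4 site CAAAGTCCA occurred in 0 of the 12 and in 0.384% of all. These are matches of letters in a window, with no measurement of binding.

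Mttp transfers triglyceride to nascent apolipoprotein B, and its 2 probe sets differed little between genotypes. The brighter, 1419400_at, read 99.2, 107 and 104 in KRAP-/- and 101, 93.3 and 102 in WT liver. The groups overlapped, with littermate ratios of 0.986, 1.14 and 1.02. Its fold change was 1.05 with a 95% interval of 0.920 to 1.19 and a limma adjusted p of 0.760. The other Mttp probe set, 1419399_at, had a log2 fold change of −0.01 whose sign turned under 4 other scalings, with values up to 0.06.

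Apoa1 and Apoa2, the main proteins of HDL, were at nearly equal levels in both genotypes. Apoa1 at 1419232_a_at read 916, 822 and 828 in KRAP-/- and 813, 841 and 885 in WT liver. The first KRAP-/- mouse was above its littermate, the other 2 were below, and the groups overlapped. The log2 fold change was 0.01 with a 95% interval of −0.17 to 0.20 and a limma adjusted p of 0.953. This probe set gave the highest signal of each array, 16608 to 21426 as deposited, and whether so bright a signal still rises in proportion to the mRNA was not given in the sources used here. The other 3 Apoa1 probe sets had log2 fold changes of −0.04, −0.03 and −0.01, which turned to between 0.01 and 0.05 with the values as deposited or a trimmed mean, so no direction was set for them. Apoa2 read 779, 724 and 692 in KRAP-/- and 729, 698 and 757 in WT liver. Its groups overlapped too, and the log2 fold change was 0.01 with a 95% interval of −0.17 to 0.19.

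Apoa4, which rides on HDL and chylomicrons and is made by intestine as well as liver, varied most among WT mice of the 10 genes at their brightest probe sets. At 1436504_x_at it read 46.4, 48.6 and 59.9 in KRAP-/- and 52.8, 49.3 and 85.5 in WT liver. The third WT mouse stood above the others and its littermate was the highest of the KRAP-/- mice. Each KRAP-/- mouse was below its littermate, at ratios of 0.878, 0.987 and 0.701. The fold change was 0.847 with a 95% interval of 0.718 to 0.999 and a limma adjusted p of 0.334, not past the test. At 1417761_at it read 29.1, 30.2 and 38.9 in KRAP-/- and 31.7, 36.1 and 60.7 in WT liver. The order of the mice was similar, the groups overlapped, and the fold change was 0.789 with a 95% interval of 0.662 to 0.940 and a limma adjusted p of 0.201. Without pair 3, the log2 fold change of 1436504_x_at was −0.10 in place of −0.24. The coefficient of variation among WT mice was 31.97% for 1436504_x_at, whereas it was 1.05% to 6.04% for the brightest probe sets of the other 9 genes. Of 4 measured enterocyte markers the sum was 48.2 to 67.4 in KRAP-/- and 39.9 to 87.0 in WT liver. Nearly all of it was Fabp2, a fatty acid binding protein, which read 47.1 to 66.3 and 38.3 to 86.5 and was highest in the third WT mouse. The other 3 markers did not share that order, since Vil1 was lowest in that mouse, at 0.026, and Alpi was highest in the third KRAP-/- mouse, at 0.665. Lct, the lactase of the intestinal brush border, was below 0.5 on all 6 arrays. The part of these markers in the Apoa4 value was not tested. In tissue RNA, fewer cells of a type and less RNA per cell cannot be told apart.

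Apoa5 raises the lipolysis of triglyceride, Apoc2 is the cofactor that lipoprotein lipase needs, and Apoc3 slows lipolysis and particle uptake. Apoa5 read 469, 420 and 409 in KRAP-/- and 408, 382 and 394 in WT liver. Every KRAP-/- value was above every WT value, by a margin of about 1 unit between the third KRAP-/- and the first WT mouse. Its log2 fold change was 0.13 with a 95% interval of −0.04 to 0.30 and a limma adjusted p of 0.461. Apoc2 read 212, 171 and 188 in KRAP-/- and 178, 179 and 182 in WT liver. The WT mice lay close together, with a coefficient of variation of 1.05% against 10.9% in the KRAP-/- mice, which lay on both sides of them. Its log2 fold change was 0.08 with a 95% interval of −0.12 to 0.27. Apoc3 read 560, 503 and 519 in KRAP-/- and 560, 547 and 554 in WT liver. The groups overlapped through the first KRAP-/- mouse, and the log2 fold change was −0.07 with a 95% interval of −0.24 to 0.10 and a limma adjusted p of 0.701.

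Apoc1 hampers receptor binding of remnant particles, and Apoe is the ligand through which hepatocytes take them up. Apoc1 read 518, 464 and 468 in KRAP-/- and 471, 476 and 481 in WT liver. Apoe read 688, 613 and 619 in KRAP-/- and 623, 643 and 684 in WT liver. For both genes the first KRAP-/- mouse was the highest of the 6 and the other 2 were below all WT mice. The log2 fold changes were 0.02 with a 95% interval of −0.16 to 0.20 for Apoc1 and −0.02 with −0.21 to 0.16 for Apoe, and that of Apoe turned to 0.03 with the values as deposited and with a trimmed mean. Apoe is also made by macrophages, and the summed level of 8 macrophage markers was lower in KRAP-/- liver, 176 to 187 against 205 to 240. Of these 8, Clec4f, a marker of Kupffer cells, was lower by the test, with 22.5, 24.0 and 22.9 in KRAP-/- and 31.6, 34.8 and 34.1 in WT liver and a limma adjusted p of 0.0255. Among all probe sets tested, 0.978% were lower by the test. Summed endothelial markers were also lower in KRAP-/- liver, 82.2 to 84.9 against 87.0 to 99.7, but none of these 5 markers passed the test. Only Clec4g was separated, with 41.4, 39.4 and 39.2 in KRAP-/- and 43.9, 47.8 and 45.4 in WT liver and a limma adjusted p of 0.350. Stab2 and Pecam1 had log2 fold changes of 0.006 and 0.013, and Kdr and Lyve1 had −0.05 and −0.20. Summed markers of pancreas acinar cells were lower in KRAP-/- liver too, 12.4 to 13.8 against 17.6 to 25.4. Most of this sum was Cela1, which read 9.73 to 13.4 in KRAP-/- and 15.7 to 22.6 in WT liver. Its limma adjusted p was 0.0634, not past the test. The groups overlapped for Prss2 and Ctrb1, and Cpa1 was below 0.5 on all 6 arrays. Groups were separated in either direction for 20.1% of all probe sets tested. The marker sums of the other cell types overlapped. The part of macrophages in the Apoe value was not tested.

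**Figure D3:**
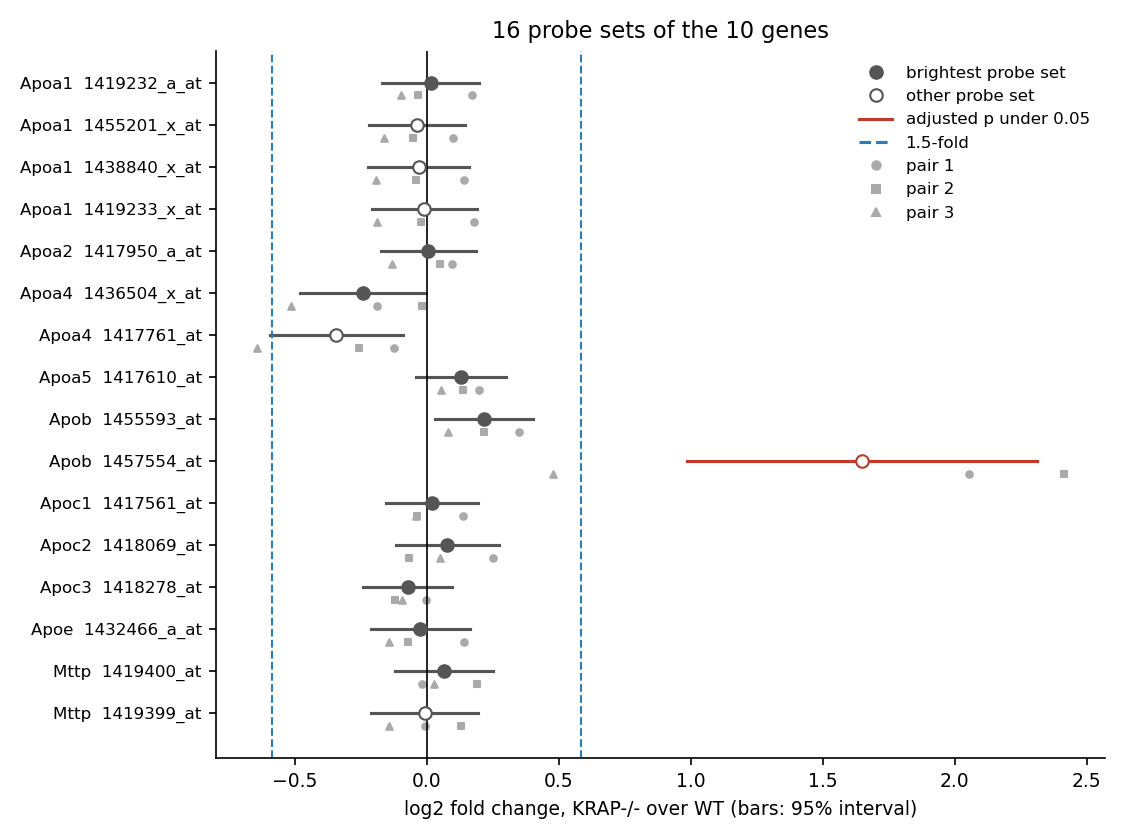
Log2 fold change, KRAP-/- over WT, of the 16 probe sets with its 95% interval from limma; filled circles are the brightest probe set of a gene, open circles the others, small grey marks the ratios of the 3 pairs, and dashed lines a change of 1.5-fold. The intervals of 14 probe sets lay between the dashed lines, that of Apob 1457554_at lay to the right of them, and that of Apoa4 1417761_at reached just past the left one.

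Across the 10 genes the first littermate pair differed from the other 2. In pair 1 the KRAP-/- mouse was higher for 7 of the 10 genes with a median ratio of 1.10, whereas in pairs 2 and 3 it was higher for 4 each with median ratios of 0.982 and 0.954. The first KRAP-/- mouse gave the highest of the 6 values for 7 of the 10 genes. The median log2 deviation of the 10 genes on that array was 0.10, and that of the 956 other probe sets with a mean of at least 100 was 0.10 as well. When arrays were centred on those bright probe sets, a scaling chosen after seeing the data, the deviation of the 10 genes on that array fell to 0.03, and again none of the 10 genes passed the test.

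**Figure D4:**
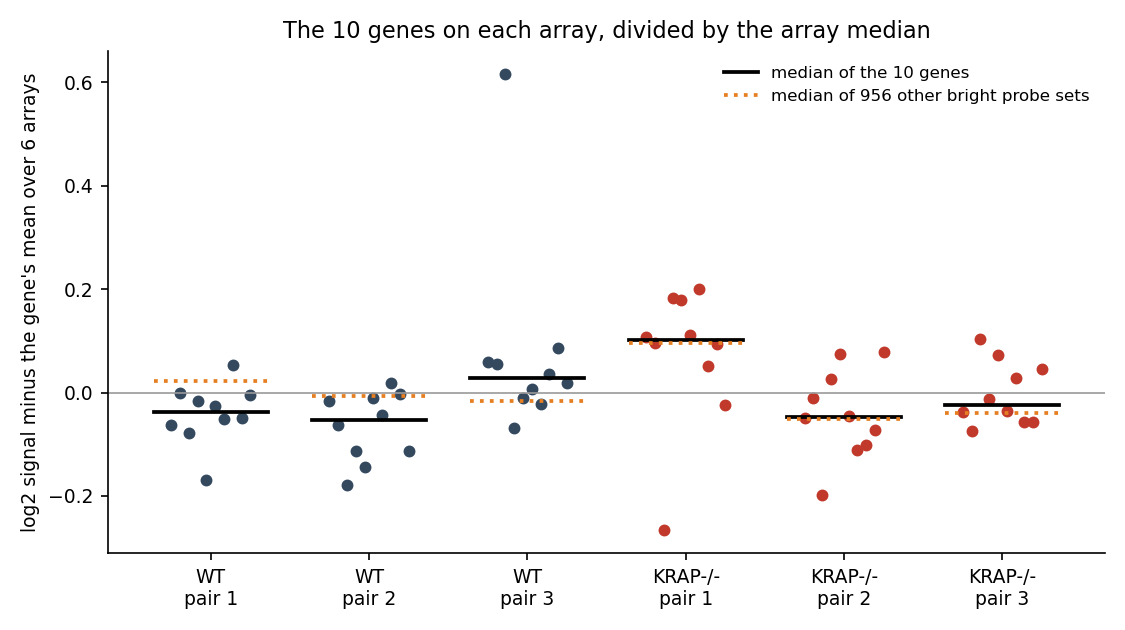
Log2 signal of the 10 genes on each array minus the gene's mean over the 6 arrays, after division by the array median. Points are genes, solid lines the median of the 10 genes and dotted lines the median of 956 other bright probe sets. Both medians were 0.10 on the array of the first KRAP-/- mouse, and the high point of the third WT mouse is Apoa4.

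By position, Apoa1, Apoc3, Apoa4 and Apoa5 are successive protein-coding genes on chromosome 9 of the RefSeq annotation, and Apoc2, Apoc4, Apoc1 and Apoe on chromosome 7. Within the first cluster the log2 fold changes were 0.01, −0.07, −0.24 and 0.13 in that order, so Apoa4 and its neighbour Apoa5 lay on opposite sides of 0. The members of the second were at 0.08 for Apoc2, 0.02 for Apoc1 and −0.02 for Apoe. Apob on chromosome 12, Mttp on chromosome 3 and Apoa2 on chromosome 1 stand apart from these clusters.

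The other genes of the pathway were taken as 4 lists, of which 66 genes were tested, each at its brightest probe set. Of these 66, 1 was higher, 2 were lower and 63 were not past the test, against 1.64% of all genes. All 3 belong to the list of lipases, inhibitors, transfer proteins and receptors. The lists were chosen with earlier results of these data known, so the counts describe the lists and test nothing about them. None of the 11 other apolipoproteins and HDL proteins passed, and their median log2 fold change was −0.05. The largest changes in that list were −0.23 for Pon3, a paraoxonase carried on HDL, and −0.18 for Apon, with limma adjusted p-values of 0.350 and 0.317. None of the 21 genes for lipid loading and export of the particle passed either, again with a median of −0.05. Tmem41b, a lipid scramblase of the endoplasmic reticulum, had −0.30 and Smlr1 had 0.28, with limma adjusted p-values of 0.268 and 0.397. The other Tmem41b probe sets had −0.38, −0.15, −0.13, −0.02 and −0.01, none past the test. An unadjusted p under 0.05 was found for 1 of the 11 and 3 of the 21, against 15.7% of all genes. Mia3, a receptor that loads large cargo at the exit sites of the endoplasmic reticulum, was picked after its values were seen. Its dim probe set 1459984_at read 6.98, 10.3 and 6.73 in KRAP-/- and 3.39, 4.96 and 4.53 in WT liver, with a log2 fold change of 0.89 and a limma adjusted p of 0.0263. At its brightest probe set the log2 fold change was 0.16 with a limma adjusted p of 0.413.

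Of 14 genes that act on plasma lipoproteins, 1 was higher and 2 were lower, with a median of −0.01, and 6 had an unadjusted p under 0.05 against 15.7% of all genes. Pltp moves phospholipid between particles, and at 1456424_s_at it read 28.4, 36.3 and 37.9 in KRAP-/- and 55.8, 66.1 and 63.7 in WT liver. The groups were well apart, and the log2 fold change was −0.86 with a standard error of 0.09 and a limma adjusted p of 0.00315. The other Pltp probe set fell by 1.26 on the log2 scale, with a limma adjusted p of 0.00352. Angptl8, which is induced by feeding and inhibits lipoprotein lipase, read 20.8, 14.5 and 16.2 in KRAP-/- and 61.2, 33.3 and 26.3 in WT liver. It was lower in every pair, at ratios of 0.339, 0.437 and 0.616, and the log2 fold change was −1.15 with a standard error of 0.15 and a limma adjusted p of 0.00768. Angptl8 is made by adipose tissue as well as liver, and the summed level of 5 measured adipocyte markers was 8.77, 9.32 and 12.1 in KRAP-/- and 26.7, 12.6 and 8.92 in WT liver. The WT mice had the same order for both. Among the KRAP-/- mice the first was highest for Angptl8 and lowest for the markers. For the sum, mostly Fabp4, the groups overlapped. For Adipoq they did not, with 0.144, 0.032 and 0.253 in KRAP-/- and 2.20, 0.694 and 0.444 in WT liver. Its log2 fold change was −2.51 with a limma adjusted p of 0.252. Among all probe sets tested, 20.1% were separated in either direction. The other adipocyte markers overlapped. None of the 3 markers tested passed, and Lep was below 0.5 on all 6 arrays. The part of fat cells in the Angptl8 value was not tested. The call of Angptl8 was lost without the pair as a block, with an adjusted p of 0.0607. Angptl4, a secreted inhibitor of lipoprotein lipase that fasting induces, read 55.9, 54.8 and 53.5 in KRAP-/- and 33.5, 29.0 and 37.6 in WT liver. It was higher in every pair, and the log2 fold change was 0.72 with a standard error of 0.10 and a limma adjusted p of 0.0109. So the 2 inhibitors of the same lipase moved in opposite directions, and with a floor of 1, with no limit on dim probe sets or without the intensity trend none of the 3 genes passed, as no probe set of the array did. Scarb1, the HDL receptor of hepatocytes, was picked after its values were seen. Its brightest probe set had a log2 fold change of 0.37 with a limma adjusted p of 0.0783, and its other 2, at 0.62 and 0.47, passed with 0.0195 and 0.0498.

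None of the 20 transcription factors and Apob editing factors passed, with a median of 0.08. An unadjusted p under 0.05 was found for 6 of the 20, against 15.7% of all genes. Ppara, the fatty acid receptor that controls several apolipoprotein genes, read 96.1, 92.0 and 83.1 in KRAP-/- and 38.1, 58.7 and 75.0 in WT liver. Its groups did not overlap, as for 20.1% of all probe sets tested, and the log2 fold change was 0.71 with a limma adjusted p of 0.105. Without pair 1 it was 0.40 with a limma adjusted p of 0.167, without pair 2 it was 0.74 with 0.0304, and without pair 3 it was 0.99 with 0.00188. The Ppara probe sets 1439675_at and 1457721_at had 0.66 and 0.29, with limma adjusted p-values of 0.0542 and 0.332. At 1457721_at the groups overlapped. Khsrp, an RNA-binding protein, had −1.02 at its brightest probe set with a limma adjusted p of 0.242, and 0.25 and 0.24 at the other 2. Without pair 1, 2 or 3 the value at the brightest was −0.46, −0.91 and −1.70, with limma adjusted p-values of 0.595, 0.228 and 0.00126. For Ppara and Khsrp alike, a fit without 1 pair leaves 1 residual degree of freedom, so its p-value leans on the shared spread. Apod and Lrp8, genes of these lists, were below the limit on dim probe sets.

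**Figure D5:**
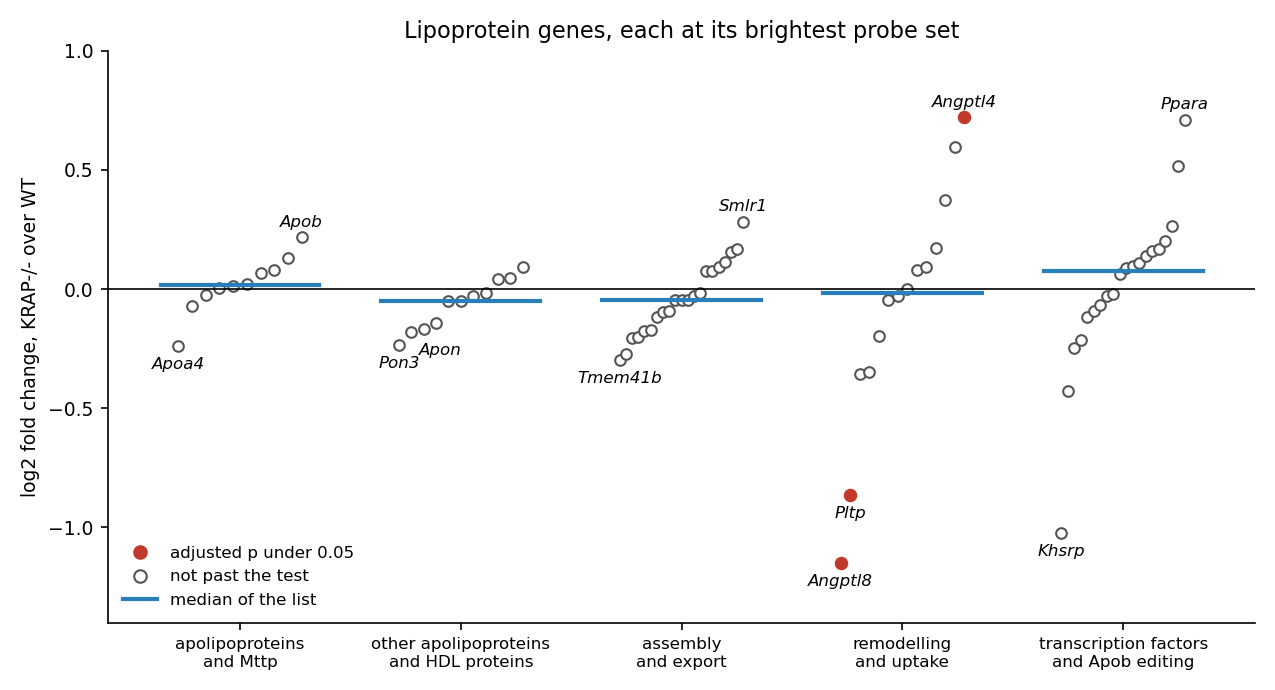
Log2 fold change, KRAP-/- over WT, of each gene of the 5 lists at its brightest probe set. Filled circles passed the limma test and blue lines are list medians. The 10 apolipoprotein and Mttp values lay between −0.24 and 0.22, and the 3 filled circles are Pltp at −0.86, Angptl8 at −1.15 and Angptl4 at 0.72.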

How the data were processed

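Total RNA of liver was hybridized to Affymetrix Mouse Genome 430 2.0 arrays, 1 per mouse. The deposited values are linear signal intensities that the authors made with GCOS, and the normalization to the 50th percentile of each chip that the methods describe is not in them. Here array medians were divided out, 64 control probe sets dropped, and values floored at 0.1 before taking log2. A mean of 0.5 or more was required, which 28531 probe sets reached. They were fitted in R 4.3.3 by limma 3.58.1, blocking on littermate pair and with an intensity trend, and p-values were adjusted by Benjamini-Hochberg over all of them at a threshold of 0.05. With 3 pairs, an exact permutation test of a single value could not go below p = 0.25, two-sided. Differences between probe sets were fitted the same way over all genes with several. Pairs are littermates by the series design; correlations of littermates' deviations were 0.043, 0.0095 and −0.012. The fit without the block was run too, beside other scalings, floors and limits. Symbols came from the platform annotation, with 34945 probe sets of 1 gene, 932 of several and 9160 of none. Named genes were all members, up to 4 called or otherwise 2 most changed genes of each list, and the 3 genes most like Apob, Apoa4 and Mttp by Pearson r. Members and lists were chosen with earlier results of these data known. The fit was tested on simulated data. Figures were drawn by matplotlib 3.10.9, and tables made by pandas 2.3.3 and numpy 2.4.6 under Python 3.11.15. The number of arrays limits the precision. Some genes of the lists are not reported here.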

Additional observations from a re-analysis of the deposited data

How the results depend on the processing

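The count of 1 member probe set past the test became 0 with a floor of 1, with no limit on dim probe sets, with no replicate block and with no intensity trend, and was 1 without each pair in turn. The count of 0 genes past the test became 1 with the median over the probe sets of each gene, where Apob had a log2 fold change of 0.93 and a limma adjusted p of 0.049. It was 0 without each pair. The number of genes with an interval inside 1.5-fold was 9 to 10. Apoa4 was the gene outside it with a floor of 1, no limit on dim probe sets, no replicate block, no trend and without replicate 2, and Apob was with the gene medians. The 3 called list genes became 0 with a floor of 1, no limit and no trend, and were 4 to 7 without 1 pair: 5 without replicate 2 and 7 without replicate 3. The study's 1.5-fold rule named 0 member probe sets, 1 with the values as deposited, and 0 to 1 without 1 pair. The difference between the Apob probe sets, 1.43, passed with a mean of at least 1, passed without probe sets marked as binding several transcripts (adjusted p = 0.0365, chosen after seeing the data), and ranged from 1.05 to 1.95 without 1 pair. Its limma adjusted p was 1.36e-08 to 0.502 over all alternatives. The change of Apob 1457554_at stayed at 1.65 in the 4 settings that ended its call and was 1.27 to 2.23 without 1 pair, with adjusted p-values from 7.38e-06 to 0.453 over all. A fit without 1 pair leaves 1 residual degree of freedom. The causes were not tested.

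Small changes turned sign. The ranges without 1 pair were −0.064 to 0.069 for Apoa1 1419232_a_at, −0.039 to 0.075 for Apoa2, −0.038 to 0.051 for Apoc1, −0.0085 to 0.15 for Apoc2, −0.11 to 0.036 for Apoe, −0.076 to 0.061 for Mttp 1419399_at, and −0.11 to 0.023, −0.12 to 0.050 and −0.10 to 0.080 for Apoa1 1455201_x_at, 1438840_x_at and 1419233_x_at. With the values as deposited these last 5 (Apoe, Mttp 1419399_at and the 3 of Apoa1) were 0.026, 0.043, 0.012, 0.019 and 0.041, and with the 2% trimmed mean 0.035, 0.051, 0.021, 0.028 and 0.050. With quantile normalization Mttp 1419399_at was 0.063 and Apoa1 1419233_x_at 0.015, and with centring on bright probe sets, chosen after seeing the data, 0.011 and 0.0099.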

Other observations

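Probe sets whose log2 values ran most like those of a member over the 6 arrays were looked up among 22276 with a mean of at least 1, as a description with no test, since all points share the 6 libraries and the array scaling. For Apob at 1455593_at these were probe sets of Fn1 (r = 0.993), Cnot4 (r = 0.991) and Fam126b (r = 0.991), and 90 probe sets had an r of at least 0.95. Fn1, the gene of fibronectin, read 21.8, 17.9 and 18.0 in KRAP-/- and 12.3, 11.8 and 15.96 in WT liver at that probe set, with a limma adjusted p of 0.102. At its brightest probe set the log2 fold change of Fn1 was 0.14. For Apoa4 they were Cox15 (r = 0.996), Aox3 (r = 0.995) and Zbtb21 (r = 0.993), each highest in the third WT mouse. For Mttp they were Zcchc7 (r = 0.988), Fip1l1 (r = 0.988) and Phka2 (r = 0.984).

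The same look-up for the dimmer Apob probe set, made after its values were seen, gave Klf7 (r = 0.995), Phf20l1 (r = 0.994) and Ttc3 (r = 0.990), and 99 probe sets had an r of at least 0.95. Klf7 read 3.04, 4.28 and 3.36 in KRAP-/- and 1.94, 2.54 and 2.96 in WT liver, so its highest and lowest mice were those of the Apob probe set. None of the 3 passed the test, with limma adjusted p-values of 0.244, 0.216 and 0.264, and the brightest probe set of Klf7 had a log2 fold change of −0.10.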
